A study of Mus musculus with 18 samples.

Results

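The 10 genes described here are immune checkpoint and regulatory T cell genes, measured in the mouse ileum: Pdcd1, Tigit, Lag3, Havcr2, Ctla4, Icos, Il10, Il2ra, Foxp3 and Ikzf2. They were chosen by symbol, and each was read on the probe set annotated with that symbol alone (with the highest mean over the arrays, had there been several). All 10 genes had such a probe set, out of 22180 genes measured.

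RNA was taken from the ileum on day 21 after an allogeneic bone marrow transplant and measured on 18 whole-transcript arrays, 1 per mouse. Every recipient was a B10.BR mouse of 8 to 12 weeks, was given 11 Gy of total body irradiation on day -1, and received 5000000 marrow cells, depleted of T cells, from C57Bl/6 donors on day 0. T cell mice also received 2000000 purified T cells from such donors and develop graft-versus-host disease, per the labels, whereas marrow-only mice received no added T cells. Within both arms mice were gavaged daily from day -1, either with indole-3-carboxaldehyde (ICA, an indole made from tryptophan that binds the aryl hydrocarbon receptor) at 150 mg/kg or with its vehicle of 20% DMSO, 40% PEG400 and 2% citric acid. The groups held 5 ICA-treated and 4 vehicle-treated T cell mice and 5 ICA-treated and 4 vehicle-treated marrow-only mice, and the labels call the mice of a group biological replicates. Donor and recipient cells were not separated, so a level in the ileum does not tell whose cells the RNA came from.

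Checkpoint receptors sit on the surface of activated T cells and pass inhibitory signals when they meet their ligands on antigen-presenting cells or tissue cells, which limits T cell responses. Regulatory T cells are a CD4 lineage that is defined by the transcription factor FOXP3, carries high levels of the IL-2 receptor alpha chain and of CTLA4, and holds back other T cells in part through the cytokine IL-10. In graft-versus-host disease of the gut, donor effector T cells attack the recipient's epithelium, and regulatory T cells are known to restrain that attack.

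The values were the authors' normalised signals, taken to be on a log2 scale. Array medians over the genes tested were 6.82 to 6.93, and Pearson's r of a pair of arrays, taken over genes (no replicates of each other), was 0.978 to 0.993. The arrays of ICA-treated T cell mouse 1 and ICA-treated marrow-only mouse 1 lay farthest from their group means, with root mean square deviations over all genes of 0.246 and 0.244, against 0.148 to 0.205 in the other arrays. Vehicle-treated marrow-only mouse 3 (0.184) was the farthest of its own group and within the range of the rest. These 3 arrays, which an earlier analysis of these data had set apart, are called the arrays that stood apart, and results are also given without them. The tissue label was borne out by Fabp6, the ileal bile acid-binding protein. It averaged 12.49 and 12.43 in T cell mice given ICA and vehicle, and 12.22 and 12.20 in marrow-only mice given ICA and vehicle. The mean of 8 intestinal epithelial markers, Fabp6 included, lay between 11.45 and 12.07 in every mouse. Of the CD3 genes, which encode the invariant chains of the T cell receptor, Cd3g, Cd3e and Cd3d were higher in T cell mice by 1.31, 1.01 and 0.44 (adjusted p of 0.00174, 0.00531 and 0.0480; the Cd3d call was lost in 19 of 29 alternatives run, with adjusted p up to 0.114).

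RefSeq promoter windows (build GRCm38.p6) were matched by symbol for 6 of the 10 genes. The 250 bases before the start site are shown for Pdcd1 and Tigit, the receptors with the largest rise, and for Il2ra and Foxp3, whose means were lower in T cell mice, so that their sequences can be read side by side. Pdcd1 is at chr1:94052554-94052803 on the minus strand, Tigit at chr16:43664185-43664434 on the minus strand, Il2ra at chr2:11642542-11642791 on the plus strand, and the windows of Foxp3 at chrX:7579426-7579675 and chrX:7580233-7580482 on the plus strand. Sequences run 5′ to 3′ on the gene's strand, and capitals mark matches on either strand to GGAAA (the core bound by NFAT, the calcium-driven factor of T cell activation), TGANTCA (AP-1), TTCNNNGAA (STAT factors) and TGTGGT (RUNX).
Pdcd1: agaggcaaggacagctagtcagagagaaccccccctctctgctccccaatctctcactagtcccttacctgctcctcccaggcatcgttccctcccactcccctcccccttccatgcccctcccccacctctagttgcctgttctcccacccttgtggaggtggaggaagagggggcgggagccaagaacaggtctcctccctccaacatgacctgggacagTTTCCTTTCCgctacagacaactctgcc
Tigit: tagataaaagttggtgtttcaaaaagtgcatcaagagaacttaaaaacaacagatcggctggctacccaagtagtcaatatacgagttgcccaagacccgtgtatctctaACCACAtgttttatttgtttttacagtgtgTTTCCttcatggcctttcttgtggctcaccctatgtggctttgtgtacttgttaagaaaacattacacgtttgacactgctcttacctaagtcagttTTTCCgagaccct
Il2ra: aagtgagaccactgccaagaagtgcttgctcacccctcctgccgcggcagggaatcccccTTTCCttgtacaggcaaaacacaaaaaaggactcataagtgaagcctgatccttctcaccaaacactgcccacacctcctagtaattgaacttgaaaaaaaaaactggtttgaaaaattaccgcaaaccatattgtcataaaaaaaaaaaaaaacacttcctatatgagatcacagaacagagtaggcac
Foxp3, first window: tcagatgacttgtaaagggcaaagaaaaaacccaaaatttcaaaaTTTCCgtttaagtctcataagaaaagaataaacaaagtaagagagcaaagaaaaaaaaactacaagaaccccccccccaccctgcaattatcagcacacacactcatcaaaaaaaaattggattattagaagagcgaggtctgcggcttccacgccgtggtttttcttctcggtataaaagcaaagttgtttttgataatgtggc
Foxp3, second window: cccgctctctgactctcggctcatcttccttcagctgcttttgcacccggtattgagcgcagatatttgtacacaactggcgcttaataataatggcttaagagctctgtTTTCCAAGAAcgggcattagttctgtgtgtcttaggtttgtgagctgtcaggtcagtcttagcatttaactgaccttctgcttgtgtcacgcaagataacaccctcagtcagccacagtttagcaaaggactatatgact
Pdcd1 held the NFAT core 2 times, within 28 bases of its start site, and Tigit held it 2 times with 1 RUNX match. Il2ra held 1 NFAT core, and each Foxp3 window held 1, which in the second overlapped a STAT match. Over 32851 RefSeq windows of the same length, 55.6% held the NFAT core, 14% the RUNX motif, 7.02% the STAT motif and 6.75% the AP-1 motif. GCGTG, the core bound by the aryl hydrocarbon receptor, is not in capitals: it occurred 1 time in each Foxp3 window, was not among the letters of the Pdcd1, Tigit, Il2ra, Ctla4 and Havcr2 windows, and is in 28.2% of all windows. A match is a description of letters, not a binding site.

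Of the 10 genes, 4 rose in T cell mice against marrow-only mice, averaged over both treatments, and none fell. They were the inhibitory receptors Pdcd1 (1.91-fold), Tigit (1.84-fold) and Lag3 (1.48-fold) and the cytokine Il10 (1.32-fold). Foxp3, Il2ra and Ikzf2, which mark regulatory T cells, were each lower in mean and did not pass the test. The test was limma's over all 22180 genes with Benjamini-Hochberg adjustment, and a gene was called at an adjusted p under 0.05. In this comparison 3.58% of all genes rose, 3.62% fell and 7.21% were called in either direction, against the 4 of 10 that rose here. The median difference of the 10 genes was 0.17 on the log2 scale, and that of all genes was -0.0013.

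Pdcd1 encodes PD-1, the receptor for PD-L1 and PD-L2 that dampens T cell receptor signalling. It stood at 6.54, 7.18, 7.23, 6.78 and 7.28 in T cell mice given ICA, against 6.31, 6.46, 6.33, 6.26 and 6.12 in marrow-only mice given ICA. Under vehicle it stood at 6.68, 7.21, 7.71 and 7.25 in T cell mice and at 6.15, 6.35, 5.61 and 6.08 in marrow-only mice. All 9 T cell mice lay above all 9 marrow-only mice, a separation that 0.144% of all genes showed in that direction. The difference was 0.93 ± 0.13 (SE) on the log2 scale, with an adjusted p of 0.000128. It was 1.16 ± 0.19 under vehicle (adjusted p = 0.00350) and 0.70 ± 0.17 under ICA (adjusted p = 0.0262). The call under ICA was lost without any 1 of 5 mice, ICA-treated marrow-only mice 4 and 5 and ICA-treated T cell mice 2, 3 and 5 (differences of 0.64 to 0.70, adjusted p of 0.0511 to 0.0790), and without the 3 arrays that stood apart the difference under ICA was 0.82 (adjusted p = 0.00400). The call under ICA was also lost with all probe sets tested (adjusted p = 0.0597).

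Tigit encodes a receptor that competes with the activating receptor CD226 for the poliovirus receptor, and it is carried by effector, regulatory and natural killer (NK) cells. It stood at 6.27, 6.75, 6.72, 6.33 and 6.41 in T cell mice given ICA, against 5.34, 6.00, 5.94, 5.52 and 5.98 in marrow-only mice given ICA. With vehicle it was at 5.91, 6.29, 7.25 and 6.68 in T cell mice and at 5.84, 5.58, 5.41 and 5.23 in marrow-only mice. T cell and marrow-only mice did not overlap within either treatment (6.33% of all genes separated that way under vehicle and 1.16% under ICA), and 1 vehicle-treated T cell mouse lay below the highest ICA-treated marrow-only mice. The difference was 0.88 ± 0.15 over both treatments (adjusted p = 0.000826), 1.01 ± 0.22 under vehicle (adjusted p = 0.0217) and 0.74 ± 0.20 under ICA (adjusted p = 0.0418). Under vehicle the call was lost without any 1 of 5 mice, marrow-only mice 2, 3 and 4 and T cell mice 3 and 4 (0.77 to 1.04, adjusted p of 0.0518 to 0.0916). Under ICA it was lost without any 1 of 8 of the 10 mice, all but marrow-only mouse 2 and T cell mouse 1 (0.64 to 0.80, adjusted p of 0.0564 to 0.110), and without the 3 arrays (0.69, adjusted p = 0.0605). With all probe sets tested both calls were lost (adjusted p of 0.0556 under vehicle and 0.0881 under ICA). The call under ICA was also lost with a prior without a trend (adjusted p = 0.0543) and with a robust prior (adjusted p = 0.0599).

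Lag3 encodes a CD4-like receptor that binds MHC class II. It stood at 6.96, 7.52, 7.24, 6.99 and 7.30 in T cell mice given ICA, against 6.49, 7.06, 6.92, 6.55 and 6.69 in marrow-only mice given ICA. Under vehicle it stood at 6.90, 7.10, 7.74 and 7.23 in T cell mice and at 6.47, 6.67, 6.52 and 6.66 in marrow-only mice. The vehicle groups did not overlap (6.33% of all genes separated that way), whereas ICA-treated marrow-only mouse 2 lay above the lowest ICA-treated T cell mice. The difference was 0.56 ± 0.11 over both treatments (adjusted p = 0.00235), 0.66 ± 0.16 under vehicle (adjusted p = 0.0397) and 0.46 ± 0.14 under ICA, where it did not pass (adjusted p = 0.0850). The call under vehicle was lost in 7 of 8 omissions of 1 mouse, every one but that of T cell mouse 1 (0.49 to 0.71, adjusted p of 0.0716 to 0.140). It was also lost with all probe sets tested (adjusted p = 0.0897) and with a prior without a trend (adjusted p = 0.0525). Under ICA Lag3 passed without marrow-only mouse 2 (0.54, adjusted p = 0.0470). It also passed there with array weights (0.51, adjusted p = 0.0470) and with mouse number as a replicate block (0.46, adjusted p = 0.0428).

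Il10 encodes the anti-inflammatory cytokine IL-10, which macrophages and B cells make as well as T cells. It stood at 5.56, 5.76, 5.60, 5.71 and 5.79 in T cell mice given ICA, against 5.22, 5.27, 5.53, 5.15 and 5.19 in marrow-only mice given ICA. With vehicle it was at 5.08, 5.75, 5.72 and 5.77 in T cell mice and at 5.25, 5.15, 5.01 and 5.36 in marrow-only mice. The ICA groups did not overlap (1.16% of all genes separated that way), and under vehicle T cell mouse 1 lay among the marrow-only mice while the other 3 lay above them all. The difference was 0.40 ± 0.09 over both treatments (adjusted p = 0.00896). It was 0.38 ± 0.13 under vehicle (adjusted p = 0.179) and 0.41 ± 0.12 under ICA (adjusted p = 0.0667), neither past the threshold. Without T cell mouse 1 the vehicle difference was 0.55 (adjusted p = 0.0142), and without marrow-only mouse 3 the ICA difference was 0.47 (adjusted p = 0.0497). The Il10 signal was low. Its mean over all mice, 5.44, lay within the range of olfactory and vomeronasal receptor genes, at percentile 86.2 of them.

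The calls of Pdcd1, Tigit, Lag3 and Il10 over both treatments held in all 29 alternatives run, each omission of 1 mouse included. Their differences there ran from 0.85 to 1.02 for Pdcd1, 0.76 to 0.98 for Tigit, 0.48 to 0.62 for Lag3 and 0.37 to 0.48 for Il10. In a piece of whole ileum, more cells of a type and more RNA per cell cannot be told apart, which applies to every difference given here.

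**Figure D1:**
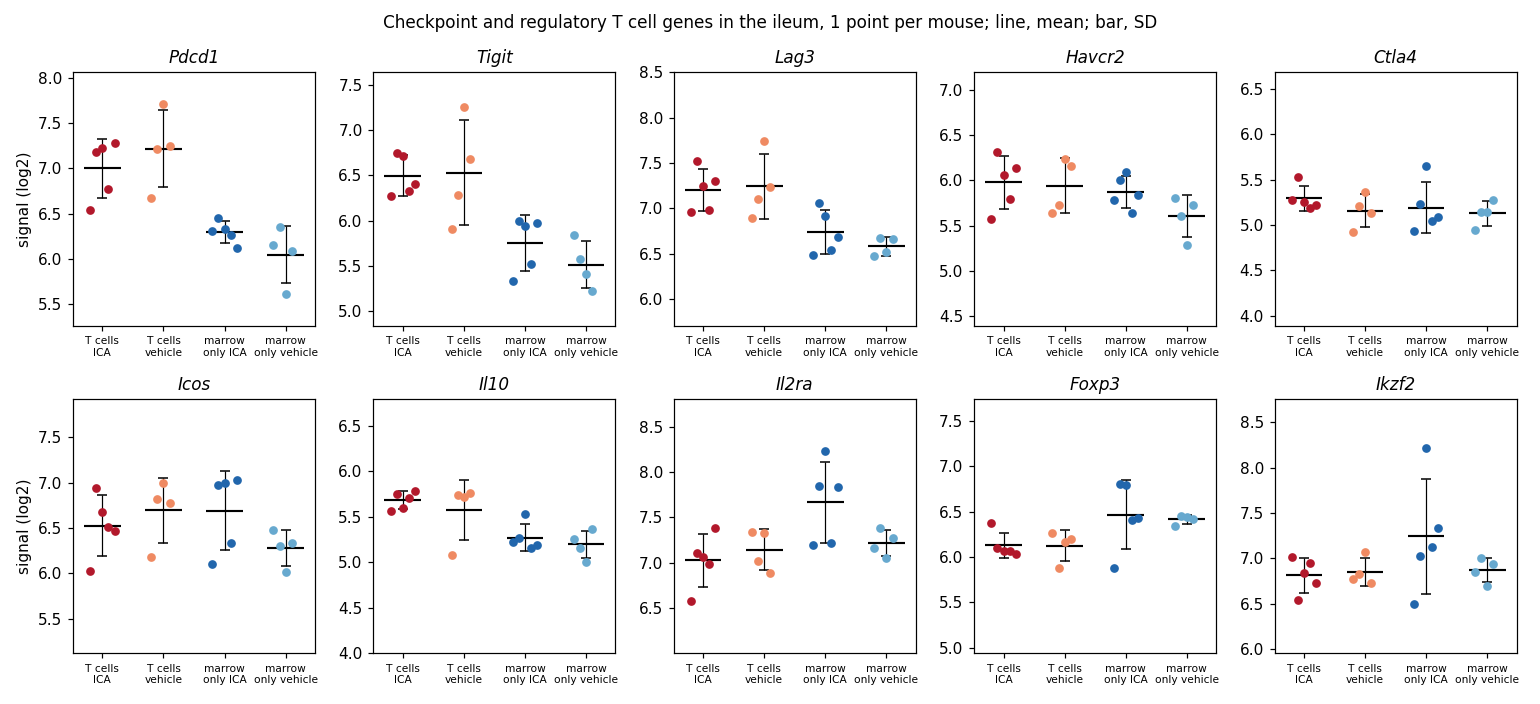
Log2 signal of each gene in each mouse, 1 panel per gene and 1 point per mouse, with lines at group means and bars of 1 SD; each panel has its own signal axis of the same length. T cell mice given ICA and vehicle stand left of marrow-only mice given ICA and vehicle. Pdcd1 is at or above 6.54 in every T cell mouse and at or below 6.46 in every marrow-only mouse, whereas Foxp3 has its highest values, up to 6.81, in marrow-only mice.

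The other receptors of the group did not pass the test. Havcr2 encodes TIM-3, an inhibitory receptor of terminally differentiated T cells that myeloid cells also carry. It ranged from 5.58 to 6.31 in T cell mice given ICA and from 5.63 to 6.24 in T cell mice given vehicle, against 5.64 to 6.09 in marrow-only mice given ICA and 5.28 to 5.80 in marrow-only mice given vehicle. The groups overlapped, and the difference over both treatments was 0.22 ± 0.11 (adjusted p = 0.272). Ctla4, which encodes the receptor that outcompetes CD28 for CD80 and CD86, ranged from 5.19 to 5.53 in T cell mice given ICA and from 4.92 to 5.36 in T cell mice given vehicle. In marrow-only mice it ranged from 4.94 to 5.65 under ICA and from 4.95 to 5.27 under vehicle. These ranges lay nearly on top of each other, and the difference was 0.07 ± 0.09 (95% interval -0.12 to 0.26, adjusted p = 0.773). Ctla4 was the dimmest of the 10 probe sets. Its mean lay at percentile 80.9 among 1394 olfactory and vomeronasal receptor genes, which the ileum is not known to use. Il10 lay at percentile 86.2 and the other 8 genes between 93.2 and 99.6; probe sets differ in affinity, and this is no detection call.

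Icos, a costimulatory receptor of the CD28 family, stood at 6.02, 6.94, 6.67, 6.51 and 6.47 in T cell mice given ICA, against 6.11, 6.97, 7.00, 6.34 and 7.03 in marrow-only mice given ICA. Under vehicle it stood at 6.18, 6.82, 7.00 and 6.77 in T cell mice and at 6.48, 6.30, 6.01 and 6.33 in marrow-only mice. Of the 4 T cell mice, 3 lay above the marrow-only mice under vehicle. Under ICA it was 3 of the 5 marrow-only mice that lay above every T cell mouse, and 1 T cell mouse lay below every marrow-only mouse. The difference was 0.41 ± 0.21 under vehicle (adjusted p = 0.435) and -0.17 ± 0.19 under ICA (adjusted p = 0.741), and the difference between these differences was -0.58 ± 0.29 (adjusted p = 0.759).

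Foxp3, the lineage factor of regulatory T cells, stood at 6.38, 6.10, 6.06, 6.07 and 6.03 in T cell mice given ICA, against 5.88, 6.81, 6.80, 6.41 and 6.43 in marrow-only mice given ICA. With vehicle it was at 6.26, 5.87, 6.16 and 6.20 in T cell mice and at 6.34, 6.46, 6.44 and 6.42 in marrow-only mice. Under vehicle every T cell mouse lay below every marrow-only mouse, a separation that 4.21% of all genes showed in that direction. Under ICA all but 1 marrow-only mouse lay above every T cell mouse, and the exception was marrow-only mouse 1, the lowest of that group and an array that stood apart. The difference was -0.31 ± 0.10 over both treatments (adjusted p = 0.0657), -0.29 ± 0.15 under vehicle (adjusted p = 0.437) and -0.34 ± 0.13 under ICA (adjusted p = 0.196). Without ICA-treated marrow-only mouse 1 it was -0.39 over both treatments (adjusted p = 0.00263), without ICA-treated T cell mouse 1 it was -0.34 (adjusted p = 0.0395), and without the 3 arrays that stood apart it was -0.41 (adjusted p = 0.00182). It also passed with a further quantile normalization (-0.32, adjusted p = 0.0448), with arrays centred on their medians (-0.34, adjusted p = 0.0427) and with array weights (-0.33, adjusted p = 0.0129), so that 6 of 29 alternatives called Foxp3 lower in T cell mice. Under ICA alone it passed without marrow-only mouse 1 (-0.48, adjusted p = 0.00820) and without the 3 arrays (-0.55, adjusted p = 0.00378).

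Il2ra encodes CD25, the alpha chain of the high-affinity IL-2 receptor, found on regulatory T cells and on newly activated effector T cells. It stood at 6.58, 7.11, 7.07, 6.99 and 7.38 in T cell mice given ICA, against 7.20, 7.85, 8.23, 7.22 and 7.83 in marrow-only mice given ICA. Under vehicle it stood at 7.34, 7.02, 7.32 and 6.89 in T cell mice and at 7.16, 7.39, 7.06 and 7.27 in marrow-only mice. The vehicle groups overlapped in part, with 2 of 4 T cell mice below every marrow-only mouse and 1 marrow-only mouse above every T cell mouse, while 3 ICA-treated marrow-only mice, 2, 3 and 5, lay above every other mouse of the study. Il2ra fell in T cell mice under ICA (-0.64 ± 0.17, adjusted p = 0.0457), and the differences under vehicle (-0.08 ± 0.19, adjusted p = 0.919) and over both treatments (-0.36 ± 0.13, adjusted p = 0.104) did not pass. The call under ICA was lost without any 1 of 7 of the 10 mice, marrow-only mice 2, 3 and 5 and T cell mice 1 to 4 (-0.66 to -0.50, adjusted p of 0.0786 to 0.130), and in a model of the ICA groups alone (adjusted p = 0.131). It was also lost with all probe sets tested (adjusted p = 0.0935), a prior without a trend (adjusted p = 0.0593) and a robust prior (adjusted p = 0.0587). Without the 3 arrays that stood apart the difference was -0.64 under ICA (adjusted p = 0.0185) and -0.39 over both treatments (adjusted p = 0.0400). Without ICA-treated marrow-only mouse 1 the difference over both treatments was -0.42 (adjusted p = 0.0342).

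Ikzf2 encodes Helios, a transcription factor of thymus-derived regulatory T cells that some other lymphocytes also carry. It stood at 7.01, 6.54, 6.84, 6.94 and 6.72 in T cell mice given ICA, against 6.49, 7.03, 8.22, 7.12 and 7.34 in marrow-only mice given ICA. Under vehicle it ranged from 6.72 to 7.07 in T cell mice and from 6.70 to 7.00 in marrow-only mice. ICA-treated marrow-only mouse 3 lay far above all others and mouse 1 of that group lay below all others. The difference was -0.23 ± 0.15 over both treatments (adjusted p = 0.446) and -0.43 ± 0.20 under ICA (adjusted p = 0.282), and both moved when either mouse was left out. Without mouse 1 of that group the difference under ICA was -0.62 and passed (adjusted p = 0.0362), and without mouse 3 it was -0.18 (adjusted p = 0.617), with -0.10 over both treatments. Without the 3 arrays that stood apart it was -0.67 under ICA (adjusted p = 0.0326) and -0.37 over both treatments (adjusted p = 0.0849).

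Within each treatment, 3 of 10 genes were called under vehicle, all higher in T cell mice (Pdcd1, Tigit and Lag3), where 1.47% of all genes were called in either direction, 0.794% higher and 0.681% lower. Under ICA 3 were called, Pdcd1 and Tigit higher and Il2ra lower, where 3.12% of all genes were called, 1.05% higher and 2.07% lower. The order of the group means was the same for Pdcd1, Tigit and Lag3: vehicle-treated T cell mice, ICA-treated T cell mice, ICA-treated marrow-only mice and vehicle-treated marrow-only mice, from high to low. For each of these genes the groups of the same arm were closer together than 1 SD, and the step between T cell mice given ICA and marrow-only mice given ICA (0.70, 0.74 and 0.46) exceeded it. For Foxp3, Il2ra and Ikzf2 both marrow-only groups had higher means than both T cell groups. The step from the lower marrow-only mean to the higher T cell mean was 0.29 for Foxp3, against a larger SD of 0.14 in the groups on either side of the step. The ranges of those groups overlapped, ICA-treated marrow-only mice had an SD of 0.38, and Foxp3 did not pass the test. The step was within 1 SD for Il2ra (0.08, SD 0.23) and Ikzf2 (0.02, SD 0.15).

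**Figure D2:**
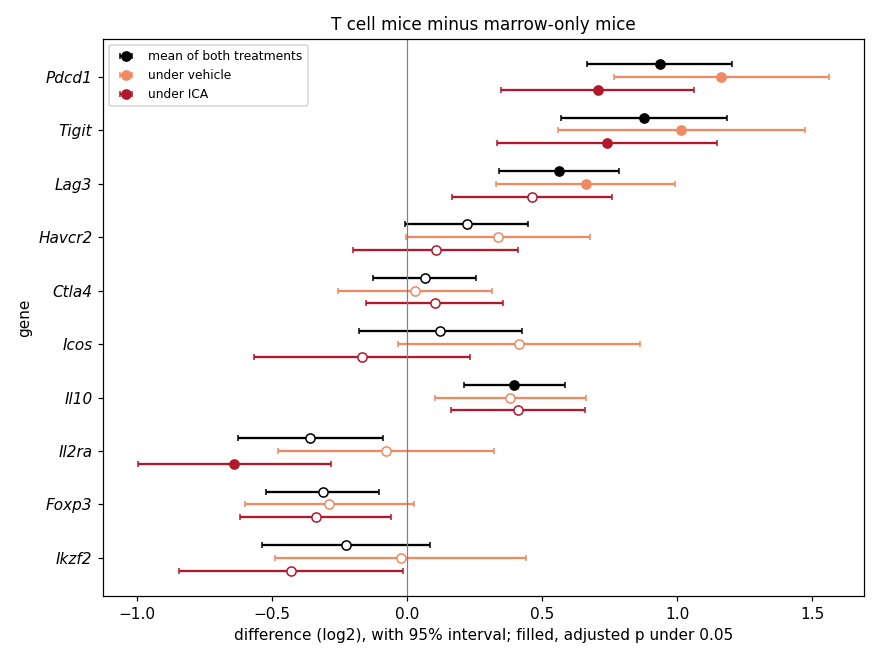
Difference between T cell and marrow-only mice in log2 signal for each gene, with 95% intervals, over both treatments, under vehicle and under ICA; filled points have an adjusted p under 0.05. Pdcd1, Tigit, Lag3 and Il10 lie right of 0 over both treatments, and there the intervals of Foxp3 and Il2ra lie left of 0 with open points, while Il2ra under ICA is filled.

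Because T cell mice also held more CD3 message, each gene was read against the mean of Cd3d, Cd3e and Cd3g of the same ileum. That mean ran from 7.98 to 8.88 in T cell mice given ICA and from 8.12 to 9.14 in T cell mice given vehicle. It was 7.06, 8.42, 8.32, 7.63 and 8.39 in marrow-only mice given ICA and ran from 6.83 to 7.64 in marrow-only mice given vehicle, so that ICA-treated marrow-only mice 2, 3 and 5 lay within the range of T cell mice. Relative to it Pdcd1 differed between T cell and marrow-only mice by 0.02 ± 0.24 (95% interval -0.45 to 0.48) and Tigit by -0.04 ± 0.24 (-0.51 to 0.43), on the log2 scale. Intervals of that width do not show that these receptors and CD3 moved alike, and with array weights Pdcd1 passed on the higher side (0.28, adjusted p = 0.0475). Lag3 relative to CD3 differed by -0.36 ± 0.23 (adjusted p = 0.129). On this scale every gene shares the subtracted CD3 mean, and limma's fit treated the spread between mice as known. For all genes read this way, intervals may therefore be too narrow and adjusted p too small.

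The other 7 genes were lower relative to CD3 in T cell mice, from -0.52 ± 0.25 for Il10 (adjusted p = 0.0353, lost without ICA-treated T cell mouse 2 or 3, vehicle-treated T cell mouse 3, ICA-treated marrow-only mouse 1 or 4 or vehicle-treated marrow-only mouse 1 or 3, at -0.51 to -0.42 and adjusted p up to 0.0717) to -1.28 ± 0.23 for Il2ra (adjusted p = 2.25e-06). Foxp3 relative to CD3 was lower by -1.23 ± 0.24, Ikzf2 by -1.15 ± 0.23, Ctla4 by -0.85 ± 0.25, Icos by -0.80 ± 0.24 and Havcr2 by -0.70 ± 0.24. Since 98.7% of all genes were called on this scale, 98.6% lower and 0.0676% higher, and the median of all genes was -0.92, the count of 7 says nothing particular about these genes. Il2ra relative to CD3 ran from -1.77 to -1.26 in T cell mice given ICA and from -1.82 to -0.78 in T cell mice given vehicle, against -0.57 to 0.14 in marrow-only mice given ICA and -0.34 to 0.22 in marrow-only mice given vehicle. Icos relative to CD3 ran from -2.18 to -1.95 in T cell mice given ICA and from -2.15 to -1.61 in T cell mice given vehicle, against -1.44 to -0.95 in marrow-only mice given ICA and -1.34 to -0.82 in marrow-only mice given vehicle. For both genes every T cell mouse lay below every marrow-only mouse, which held for 2.28% of all genes on this scale. A gene that did not differ between the arms lies near the all-gene median of -0.92 here, and Icos (-0.80) fell less than that. Its signal without the subtraction differed by 0.12 ± 0.14 (limma's adjusted p = 0.718), so this separation does not show a fall of Icos.

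**Figure D3:**
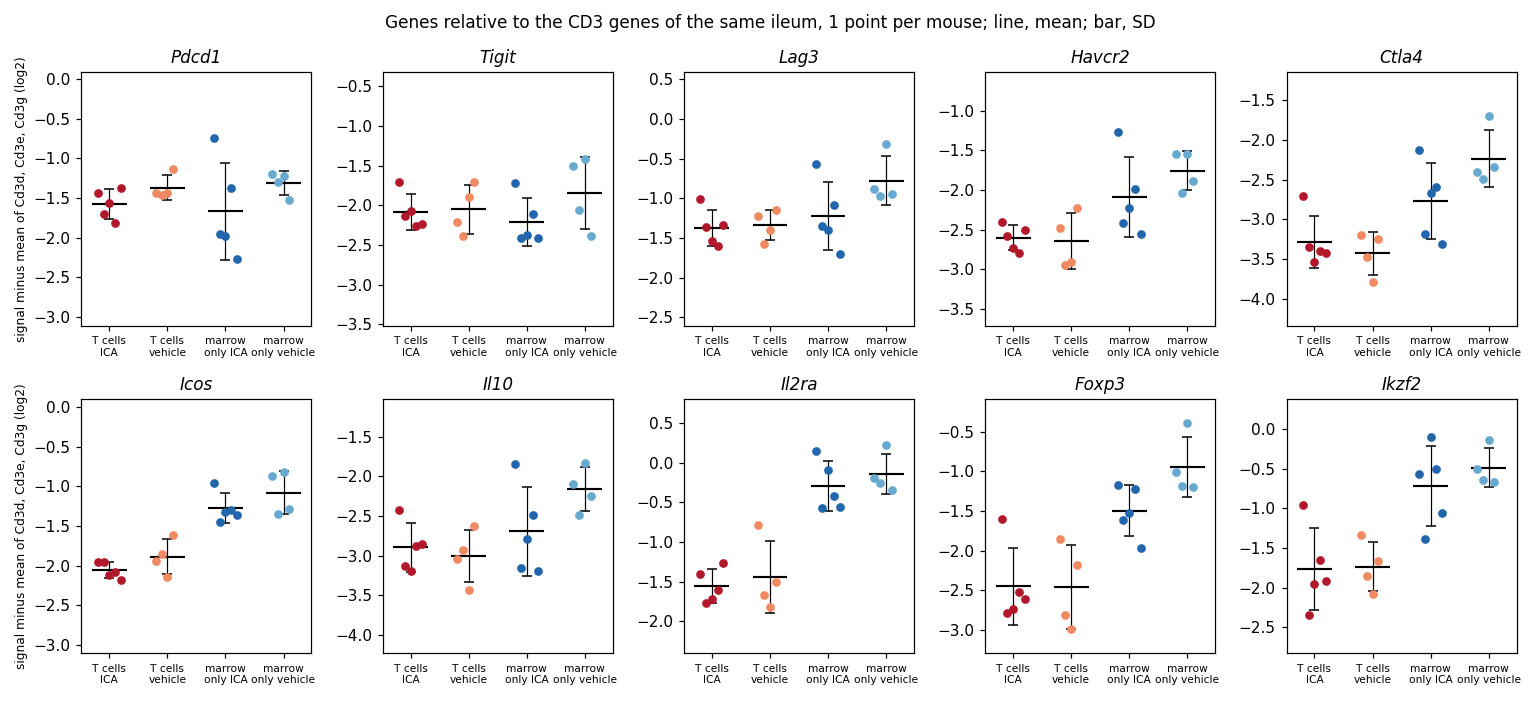
Log2 signal of each gene minus the mean log2 signal of Cd3d, Cd3e and Cd3g in the same mouse, 1 point per mouse, with lines at group means and bars of 1 SD; each panel has its own axis of the same length. The T cell groups stand left of the marrow-only groups. Icos and Il2ra separate the arms without overlap, with T cell mice at or below -1.61 for Icos and -0.78 for Il2ra, while the arms overlap for Pdcd1 and Tigit. On this scale the median difference of all genes was -0.92, so most genes stand lower in T cell mice.

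None of the 10 genes passed the test of ICA against vehicle in T cell mice. The differences ran from -0.21 ± 0.18 for Pdcd1 (-0.39 to -0.05 when 1 mouse was left out) to 0.14 ± 0.13 for Ctla4, limma's adjusted p from 0.880 to 0.998, and 0 of 10 had an unadjusted p under 0.05. The 95% intervals of the 10 genes lay between -0.60 and 0.41, which bounds the differences these mice allow. Foxp3 averaged 6.13 in ICA-treated T cell mice (SD 0.141, n = 5) and 6.13 in vehicle-treated T cell mice (SD 0.172, n = 4), a difference of 0.00 ± 0.14 (SE). Of all genes 0.0135% were called in this comparison.

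In marrow-only mice all 10 genes had a higher mean under ICA than under vehicle, by 0.05 to 0.45 with a median of 0.24, and 0 of 10 passed limma's test (adjusted p from 0.638 to 0.952). Of all genes 53.5% were higher, with a median of 0.01, and 0.00451% were called. Il2ra had the largest difference, 0.45 ± 0.18 (adjusted p = 0.638; the 1 gene of 10 with an unadjusted p under 0.05), then Icos with 0.41 ± 0.20 (adjusted p = 0.665) and Ikzf2 with 0.37 ± 0.21 (adjusted p = 0.698; 0.12 without ICA-treated marrow-only mouse 3 and 0.56 without mouse 1). Without ICA-treated marrow-only mouse 2 the number of genes higher was 9, and without mouse 3 it was 8. For Icos and Il2ra the high mice were ICA-treated marrow-only mice 2, 3 and 5. Icos stood at 6.97 to 7.03 in them against 6.11 and 6.34 in mice 1 and 4, and Il2ra at 7.83 to 8.23 against 7.20 and 7.22. Pdcd1, Il10 and Ikzf2 did not split the mice this way. Tigit, Lag3 and, by a small margin, Foxp3 were also higher in each of mice 2, 3 and 5 than in mice 1 and 4. The same 3 mice had a CD3 mean of 8.32 to 8.42, against 7.06 and 7.63 in mice 1 and 4, and an epithelial mean of 11.45 to 11.64, against 12.07 and 11.94. The part of these differences between mice in the result was not tested.

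The effect of ICA did not differ between arms at the threshold for any of the 10 genes by limma's interaction test (0 of 10, adjusted p from 0.741 to 0.986), where 0% of all genes passed. At an unadjusted p under 0.05 stood 1 of the 10, Il2ra (-0.56 ± 0.26), and 1482 of all genes. Averaged over both arms, 0 of 10 genes passed limma's test of ICA against vehicle (adjusted p from 0.782 to 0.985, 0 with an unadjusted p under 0.05), where 0.0135% of all genes were called. The differences over both arms ran from 0.02 for Pdcd1 to 0.17 for Ikzf2.

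**Figure D4:**
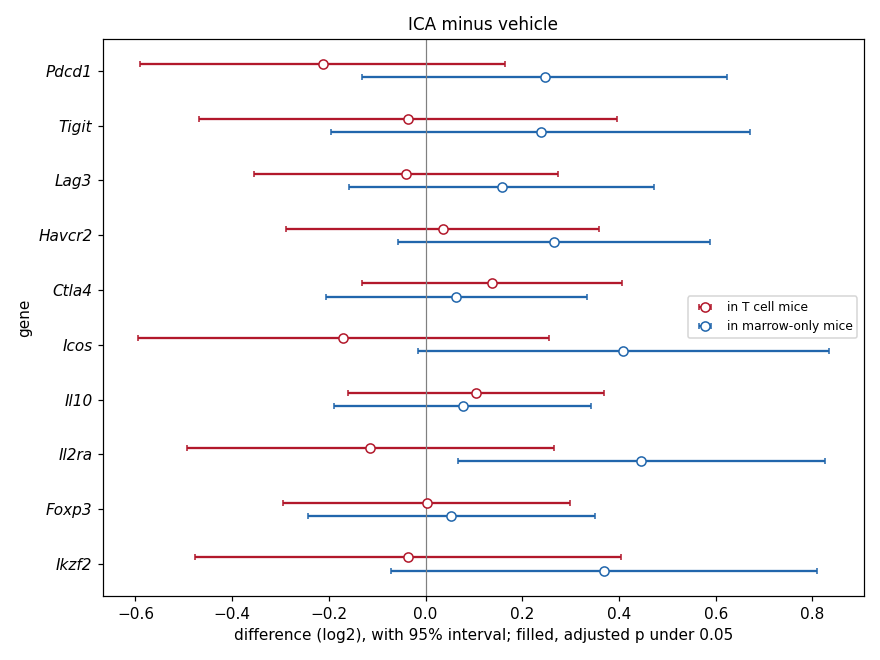
Difference between ICA-treated and vehicle-treated mice in log2 signal for each gene, with 95% intervals, in T cell mice and in marrow-only mice. All points are open, since no adjusted p was under 0.05; the marrow-only points all lie right of 0, from 0.05 to 0.45, and the T cell points lie from -0.21 to 0.14.

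The ligands of the receptors were read from a list of 15 genes, of which 14 were measured, in T cell mice against marrow-only mice over both treatments. Of these 4 rose and 1 fell, with a list median of 0.18, and 2 to 4 rose when 1 mouse was left out (2 in 10 of 18 omissions). The class II genes H2-Aa (0.48 ± 0.08, adjusted p = 0.000896), H2-Ab1 (0.42 ± 0.11, adjusted p = 0.0251, lost in 3 of 29 alternatives) and H2-Eb1 (0.33 ± 0.10, adjusted p = 0.0490, lost in 16 of 29 with adjusted p up to 0.106), which encode the ligand of LAG-3, rose. Donor and recipient strains differ in their class II alleles, and for these probe sets a change in level and a change in the strain the RNA came from cannot be told apart. Hmgb1, a nuclear protein that TIM-3 binds, rose by 0.24 ± 0.07 (adjusted p = 0.0371, lost in 16 of 29 alternatives). Ceacam1, an epithelial adhesion molecule also reported as a TIM-3 ligand, fell (-0.24 ± 0.05, adjusted p = 0.00278), a call lost with a further quantile normalization (-0.12, adjusted p = 0.128). The PD-1 ligands did not pass: Cd274 (PD-L1) differed by 0.11 ± 0.15 (adjusted p = 0.778) and Pdcd1lg2 (PD-L2) by 0.47 ± 0.21 (adjusted p = 0.207).

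Of 16 other costimulatory and inhibitory receptors measured, 6 rose and none fell, with a list median of 0.34, and 3 to 9 rose when 1 mouse was left out (3 without ICA-treated T cell mouse 2 or 5 or vehicle-treated T cell mouse 3). In 4 of 18 omissions 1 gene of this list fell. Cd226, the activating partner of TIGIT, rose by 0.96 ± 0.18 (adjusted p = 0.00240), Cd27, a costimulatory receptor of the TNF receptor family, by 0.63 ± 0.14 (adjusted p = 0.00601), and Vsir, which encodes the inhibitory receptor VISTA, by 0.41 ± 0.08 (adjusted p = 0.00280). Klrg1, a receptor of differentiated effector cells, rose by 0.47 ± 0.13 (adjusted p = 0.0265, lost in 8 of 29 alternatives). Among 13 transcription factors of activation and exhaustion, Eomes, a factor of cytotoxic lymphocytes, rose by 0.61 ± 0.11 (adjusted p = 0.00165) and Bcl6, the factor of follicular helper T and germinal centre B cells, fell (-0.48 ± 0.07, adjusted p = 0.000270), with a list median of 0.11.

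Of 12 further genes linked to regulatory T cells, 2 rose and 1 fell, with a list median of 0.13. Ccr8, a chemokine receptor of tissue regulatory T cells, rose by 0.43 ± 0.07 (adjusted p = 0.000532), and Nrp1, a receptor of thymus-derived regulatory T cells that vessels and macrophages also carry, by 0.24 ± 0.06 (adjusted p = 0.0174). Ccr4, a chemokine receptor of regulatory and type 2 helper T cells, fell (-0.52 ± 0.15, adjusted p = 0.0337, lost in 13 of 29 alternatives), and Tnfrsf18, which encodes GITR, differed by 0.21 ± 0.07 (adjusted p = 0.0795). Of 12 genes of IL-2 and IL-10 signalling, 2 fell and none rose, with a list median of 0.10: Socs3, the feedback inhibitor induced by STAT3 (-0.99 ± 0.16, adjusted p = 0.000433), and Stat3, the factor that carries the IL-10 signal (-0.19 ± 0.05, adjusted p = 0.0147). Il15, a cytokine gene of the same list, differed by 0.29 ± 0.09 (adjusted p = 0.0615, called higher in 5 of 29 alternatives). Il10ra, the IL-10 receptor chain, differed by 0.36 ± 0.13 (adjusted p = 0.0965, called higher in 3 of 29 alternatives). When 1 mouse was left out, 1 gene of this list rose in 4 of 18 omissions. Il2 itself differed by -0.04 ± 0.08 (adjusted p = 0.869).

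**Figure D5:**
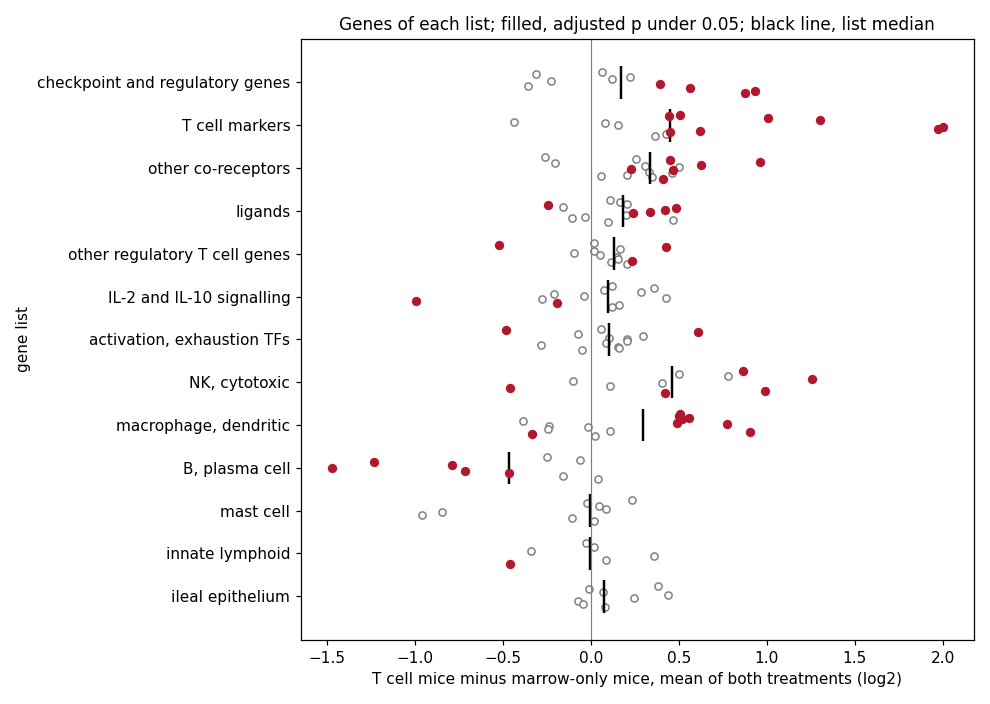
Difference between T cell and marrow-only mice over both treatments (log2) for every measured gene of each list, with filled points for an adjusted p under 0.05 and a black line at the list median. The 10 checkpoint and regulatory genes spread from -0.36 to 0.93; T cell markers reach 2.00, and B and plasma cell genes lie to the left, with a median of -0.46.

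Markers of cells that carry these receptors moved in the same comparison. Of 13 T cell markers measured, 8 rose (4 to 9 when 1 mouse was left out, 4 or 5 in 11 of 18 omissions) and none fell, led by Cd8a (2.00 ± 0.16, adjusted p = 7.53e-07) and Cd8b1 (1.97 ± 0.13, adjusted p = 5.84e-08), while Cd4, the coreceptor of the lineage that holds regulatory T cells, differed by -0.43 ± 0.14 (adjusted p = 0.0723). In 3 of 18 omissions of 1 mouse, 1 T cell marker fell. The mean of the T cell markers ran from 7.44 to 8.10 in T cell mice given ICA and from 7.48 to 8.22 in T cell mice given vehicle, against 6.68 to 7.77 in marrow-only mice given ICA and 6.65 to 7.14 in marrow-only mice given vehicle. Of 10 NK and cytotoxic genes 4 rose, among them Gzmk (1.26 ± 0.19), Nkg7 (0.99 ± 0.18) and Fasl (0.87 ± 0.12), and Ncr1, the receptor that marks NK cells, fell (-0.46 ± 0.11, adjusted p = 0.0105). Their mean ran from 6.71 to 7.52 in T cell mice given ICA and from 6.84 to 7.54 in T cell mice given vehicle, against 6.24 to 7.21 in marrow-only mice given ICA and 6.35 to 6.75 in marrow-only mice given vehicle.

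Of 14 macrophage and dendritic cell genes, 7 rose, led by Mrc1 (0.91 ± 0.11) and Csf1r (0.78 ± 0.13), and 1 fell, Xcr1, a marker of cross-presenting dendritic cells (-0.34 ± 0.10, adjusted p = 0.0379, lost in 11 of 18 omissions of 1 mouse). Their mean ran from 8.04 to 8.51 in T cell mice given ICA and from 8.16 to 8.50 in T cell mice given vehicle, against 7.81 to 8.50 in marrow-only mice given ICA and 7.81 to 8.12 in marrow-only mice given vehicle. Of 9 B and plasma cell genes 5 fell (3 to 6 when 1 mouse was left out, 3 in 9 of 18 omissions), among them Cd79a (-1.23 ± 0.18) and Ms4a1 (-0.71 ± 0.16), and none rose, with means of 6.13 to 7.09 in T cell mice given ICA and 6.21 to 6.65 in T cell mice given vehicle, against 6.68 to 7.63 in marrow-only mice given ICA and 6.96 to 7.11 in marrow-only mice given vehicle. Of 8 mast cell genes none passed over both treatments, of 6 innate lymphoid genes 1 fell (Ncr1), and of 8 epithelial genes none passed. Under vehicle the mast cell mean ran from 5.24 to 5.76 in T cell mice and from 5.98 to 6.22 in marrow-only mice. Under ICA it ran from 5.64 to 6.27 in T cell mice and from 5.41 to 6.31 in marrow-only mice. An average over both treatments does not show such a split by treatment, and these means were not tested. Without ICA-treated marrow-only mouse 1, 2 epithelial genes rose and 2 mast cell genes fell. The part of these cell types in the rise of Pdcd1, Tigit, Lag3 and Il10 was not tested.

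The genes whose centred profile over the 18 mice lay closest to those of the 4 genes that rose were named by the root mean square difference in log2 signal, as a description without a test. For Pdcd1 they were Cd84 (0.208), Fcgr2b (0.224) and Trem2 (0.224), and for Tigit they were Fasl (0.180), Gpr174 (0.231) and Csf1r (0.238). For Lag3 they were Cd68 (0.140), C1qb (0.144) and Ms4a6b (0.156), and for Il10 they were Chsy1 (0.129), Cmtm3 (0.145) and Dab2 (0.147). The mice share their group, so genes that differ between the arms by a like amount come out close.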

How the data were processed

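Whole-transcript arrays measured RNA of the ileum, 1 array for each of 18 mice. The deposited table holds the authors' processed signal, taken here as log2 values after RMA because of its range. Partek, GenomeStudio and RMA are named in the submitters' processing notes without versions, and for the background step, the filters and the base of the log, the answer is not given in the sources used here. Of 41345 probe sets, 23521 had 1 gene symbol in the platform annotation, 1814 had several and 16010 had no listed name. Each gene was read on its brightest probe set with 1 symbol, which gave 22180 genes. The annotation names no genome build, so no probe positions are given. The number of arrays limits the precision.

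The 4 group means were fitted together with limma 3.58.1 in R 4.3.3 (moderated statistics, prior variance with a trend, 14 residual degrees of freedom). The prior degrees of freedom were 6.1 for the signals themselves. On the scale relative to CD3 they were effectively unlimited, so the spread there was treated as known. Tests were two-sided, with Benjamini-Hochberg adjustment over all genes of a comparison and calls at an adjusted p under 0.05. Comparisons that share mice are not independent. For values relative to CD3, the mean of Cd3d, Cd3e and Cd3g was subtracted in each array; Cd247, the fourth gene of that list, was not among the probe sets with 1 symbol. The procedure was tested on simulated data with independent noise for each gene. Differences of 0.5 were recovered in 16% of cases for the interaction and 91% for T cells against marrow only over both treatments. Deviations shared by the genes of an array and the scale relative to CD3 were not simulated, so the test does not cover them. The 10 genes and the 14 gene lists were chosen with earlier results of these data known. Up to 4 genes with the smallest p were named per list; H2-Eb1, Cd274, Pdcd1lg2, Cd4, Il2 and Xcr1 were named after their values were seen. Alternatives were a model of the groups compared, omission of each mouse, a block on mouse number, quantile normalization, median centring, 2 filters on low signal, a gene's probe sets averaged, every probe set tested, other priors, array weights and, added after seeing the data, omission of 3 arrays.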

Additional observations from a re-analysis of the deposited data

Results flagged for a closer look

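Each gene was checked in each group for a mouse far from the rest, by the gap to its nearest neighbour over the range of the group. Of 40 groups so checked 3 stood out, and chance gives about 1 in 20. Ctla4 in ICA-treated T cell mouse 2 was 5.53, with the other 4 mice between 5.19 and 5.27. Foxp3 in ICA-treated T cell mouse 1 was 6.38, with the other 4 between 6.03 and 6.10, and that array was also the farthest from its group mean over all genes. Il10 in vehicle-treated T cell mouse 1 was 5.08, with the other 3 between 5.72 and 5.77.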

How the results depend on the processing

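Of the 10 genes, 4 rose in T cell mice over both treatments (4 to 6 called over 18 omissions of 1 mouse, and 6 without the 3 arrays that stood apart, Foxp3 and Il2ra being the added ones, both lower). Under vehicle 3 were called (1 with all probe sets tested, 1 to 4 over omissions, 1 without marrow-only mouse 2, 3 or 4 or T cell mouse 3 or 4). Under ICA 3 were called (0 with all probe sets tested, 1 with a prior without a trend, 1 with a robust prior, 0 to 4 over omissions, 0 or 1 without marrow-only mouse 4 or 5 or T cell mouse 2, 3, 4 or 5). In the comparisons of ICA with vehicle and in the interaction 0 were called in every alternative run. Relative to CD3, 7 were lower (6 to 7 over omissions; array weights added Pdcd1, higher); median centring cancels there and gives no value, and a model of the groups compared has no separate form for comparisons that use all groups. No called difference changed sign, and the cause of a lost or gained call was not tested. The mouse numbers do not pair the mice: deviations of same-numbered mice correlated between -0.14 and 0.20. With mouse number as a replicate block the counts were 4, 3 and 4 for T cells against marrow only over both treatments, under vehicle and under ICA (Lag3 added, adjusted p = 0.0428), 7 relative to CD3 and 0 elsewhere. Over all genes, median centring gave 668 higher and 1115 lower over both treatments, against 795 and 804, and 158 and 223 under vehicle, against 176 and 151. A model of the groups compared gave 511 and 313 under vehicle, 102 and 219 under ICA (against 233 and 460), and 26 and 23 for ICA in T cell mice (against 0 and 3). Array weights gave 1442 and 1101 over both treatments, 645 and 429 under vehicle and 488 and 561 under ICA. All probe sets gave 112 and 92 under vehicle. Without the 3 arrays the counts were 1482 and 1011 over both treatments, 392 and 272 under vehicle and 842 and 673 under ICA, and for ICA against vehicle 32 and 7 in T cell mice, 2 and 7 in marrow-only mice (against 0 and 1), 43 and 63 over both arms (against 0 and 3) and 2 and 1 for the interaction (against 0). There, 1 gene of IL-2 and IL-10 signalling and 2 epithelial genes also rose, and 1 mast cell gene, 2 innate lymphoid genes, 2 transcription factors and 2 macrophage and dendritic cell genes fell. ICA against vehicle in T cell mice had 8 and 5 with array weights. Signal was lowest for Ctla4 and Il10.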
